A study of Homo sapiens with 15 samples.

Results

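FOXM1, MYBL2 and 7 genes that encode subunits of the DREAM and MuvB complexes were followed through the cell cycle of U2OS cells, a human osteosarcoma line. The 9 genes were chosen by name: FOXM1, MYBL2, LIN9, LIN37, LIN52, LIN54, RBBP4, RBL1 and RBL2, out of 19531 gene names in the count tables. The tables hold 8 of them under their own symbol. LIN37 is listed only as a joined name with AD000671.1, so reads of those 2 loci cannot be told apart, and LIN37 below means the joined entry. All 9 had reads in every library and passed the filter on low counts in each test across phases.

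MuvB is a core of LIN9, LIN37, LIN52, LIN54 and RBBP4 that takes different partners as the cell cycle proceeds. In quiescence and early G1 it joins the pocket proteins RBL1 (p107) or RBL2 (p130) and E2F4 with a DP partner to form DREAM, a repressor of genes of both G1/S and G2/M. In S phase the core joins the transcription factor MYBL2 (B-MYB), and in G2 the forkhead factor FOXM1 is recruited, and these assemblies activate mitotic genes such as CCNB1 and PLK1. Much of this switching is known to rest on phosphorylation and protein turnover, which the assay used here does not read.

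Each of 5 groups, named G1, Early_S, Late_S, G2 and No_alkylation, held 3 libraries, 15 in all. Asynchronous cultures took up 4-thiouridine and the DNA label EdU for 45 minutes, were fixed, and were sorted into phases by EdU signal and DNA content, although the series title calls the cells synchronised. Treatment of the RNA with an alkylating agent turns 4-thiouridine into a base that is read as C, so a read with T-to-C conversions (a T>C read) comes from RNA synthesised within those 45 minutes. The No_alkylation libraries lacked that step and give the background of conversions. The labels do not say which sorted cells they hold, nor whether the 3 libraries of a group came from separate cultures, so p-values measure the spread between these libraries.

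The libraries held 16096695 to 21803972 reads near transcript ends. T>C reads made up 22.3% ± 0.740 of reads in G1 (SD, n = 3), 18.4% ± 0.516 of Early_S reads, 10.0% ± 0.0870 of Late_S reads, 10.1% ± 0.336 of G2 reads and 1.01% ± 0.0179 of No_alkylation reads. Of the phase markers, cyclin genes CCNB1 and CCNA2, the mitotic kinase gene PLK1 and TOP2A had their highest means in G2. CCNE1, CDC6 and CDT1 had theirs in G1. Of these 7 markers, the edgeR test described below called only CCNB1 between G2 and Late_S (adjusted p = 0.0346). All 6 mesenchymal markers had reads (summed 4729 to 6351 CPM), epithelial markers summed to 4.40 to 19.9 CPM, and blood markers to at most 0.463 CPM with CD3E and LYZ at 0.

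Steady-state levels are all reads of a gene as CPM, counts scaled to a common library total after TMM normalisation, and were compared by edgeR's quasi-likelihood test with Benjamini-Hochberg adjustment over all genes. By the test across the 4 phases, 4 of the 9 genes changed: RBL2, MYBL2, RBBP4 and FOXM1. The same test called 34.1% of 13755 genes. Between pairs of phases, 8 of 54 tests were called, against 16% of all such tests. Only RBL2 had a phase mean more than 2-fold from another, with a ratio of 2.97 between its highest and lowest phase. The ratios of the other 8 genes lay between 1.23 for FOXM1 and 1.75 for LIN52.

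**Figure D1:**
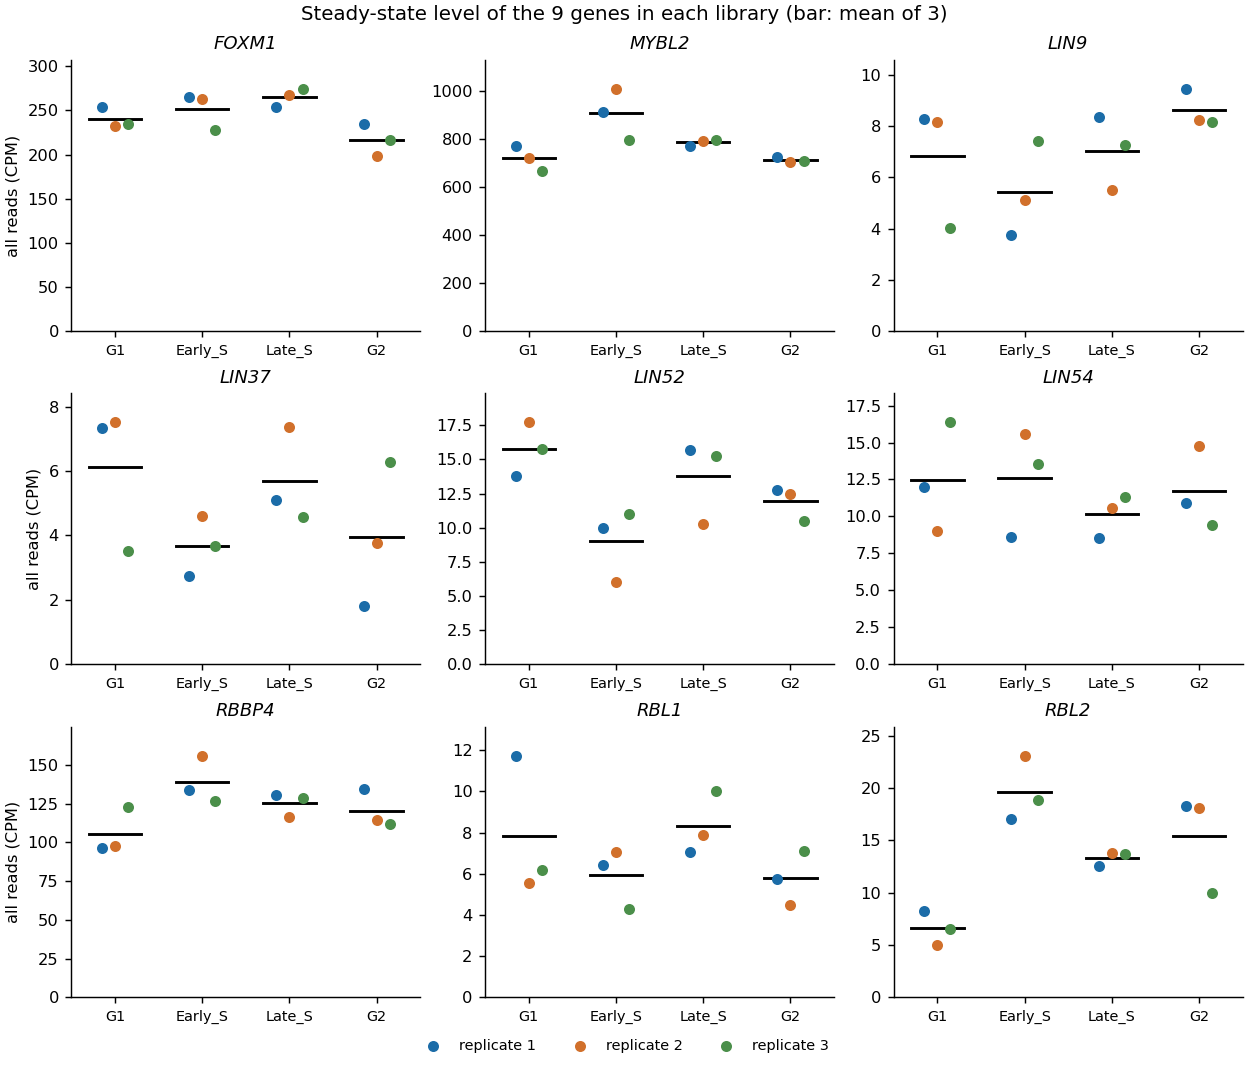
Steady-state level in CPM (y axis, from 0, a scale of its own for each gene) of the 9 genes in the 12 phase-sorted libraries, as points coloured by replicate number, with black bars at the mean of 3. The 3 G1 libraries of RBL2 lie below all 9 others, and MYBL2 is highest in Early_S.

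FOXM1, the forkhead factor that completes the mitotic activator, stood at 254, 233 and 235 CPM in the G1 libraries, 265, 263 and 228 CPM in Early_S, 254, 267 and 274 CPM in Late_S, and 234, 198 and 217 CPM in G2. The Late_S libraries all lay above the G2 libraries, and the other phases overlapped. Late_S and G2 did not overlap for 14.8% of all genes. FOXM1 passed the test across phases (edgeR adjusted p = 0.0322), yet none of its 6 pairwise differences was called. The lowest adjusted p among them was for G2 against Early_S, at a log2 difference of -0.22 (SE 0.08, adjusted p = 0.0608). G2 against Late_S was larger, at -0.29 (95% interval -0.46 to -0.12, adjusted p = 0.159), in a comparison where only 0.145% of genes were called. The call across phases was lost in 4 of 12 fits that left out 1 library: 0.173 without G2 replicate 2, 0.0909 without Late_S replicate 3, 0.0798 without G2 replicate 3 and 0.0665 without Late_S replicate 2. Because these are bulk samples scaled to a fixed total, fewer cells expressing a gene and less RNA per cell cannot be told apart.

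MYBL2, the MYB-family factor that binds MuvB in S phase, was highest in Early_S. Its levels were 770, 720 and 665 CPM in G1, 913, 1007 and 797 CPM in Early_S, 771, 792 and 797 CPM in Late_S, and 726, 704 and 709 CPM in G2. All Early_S libraries exceeded all G1 and G2 libraries. The lowest Early_S library (797.3 CPM) lay only just above the highest of Late_S (796.9 CPM). The rise from G1 to Early_S was 0.33 on the log2 scale (SE 0.07, adjusted p = 0.000242), and G2 was below Early_S by -0.35 (SE 0.07, adjusted p = 0.000236). Both calls remained in all 12 fits that left out 1 library. G1 and G2 did not differ detectably: the log2 difference was 0.01, with a 95% interval from -0.13 to 0.15. The smaller step from Early_S to Late_S, -0.20 (adjusted p = 0.0455), was lost in 6 of the 12 fits: 0.154 without Early_S replicate 1, 0.347 without Early_S replicate 2, 0.152, 0.0983 and 0.101 without Late_S replicates 1, 2 and 3, and 0.0501 without G2 replicate 3. It was also lost with RLE size factors (0.0553) and with regions fitted singly instead of summed by gene (0.0885).

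Of the 5 core MuvB genes, RBBP4 was the only one called across phases. RBBP4 encodes a histone-binding WD-repeat protein that also belongs to other chromatin complexes, among them NuRD, CAF-1 and PRC2. It stood at 96.2, 97.5 and 123 CPM in G1, 134, 156 and 127 CPM in Early_S, 131, 117 and 129 CPM in Late_S, and 134, 114 and 112 CPM in G2. Early_S was above G1 in every library, by 0.40 (SE 0.11, adjusted p = 0.00689), and the later phases overlapped with both. The test across phases (adjusted p = 0.0322) was lost without G1 replicate 1 (0.157), G1 replicate 2 (0.138), Early_S replicate 1 (0.0563) or Early_S replicate 2 (0.140). The step from G1 to Early_S was lost without G1 replicate 1 (0.0550) or Early_S replicate 2 (0.0684). With regions fitted singly, RBBP4's main region was not called across phases (0.0896), while its step from G1 to Early_S was (0.0246).

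LIN52, the subunit whose phosphorylation by DYRK1A is known to favour DREAM assembly, moved the opposite way between these phases. It had 13.8, 17.7 and 15.8 CPM in G1 and 9.98, 6.02 and 11 CPM in Early_S, with no overlap between the groups. The difference was -0.81 (SE 0.29, adjusted p = 0.0353). Late_S gave 15.7, 10.3 and 15.3 CPM and G2 gave 12.8, 12.5 and 10.5 CPM. The Late_S libraries overlapped with both earlier phases, and the G2 libraries lay below those of G1. LIN52 did not pass the test across phases (adjusted p = 0.117). Its difference from G1 was lost without Early_S replicate 2 (0.194), G1 replicate 2 (0.113) or G1 replicate 3 (0.0817), and with no filter on low counts (0.0508). With regions fitted singly, that difference was not called either (0.0647).

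The remaining core genes were counted at low depth and none of their tests was called. LIN9, a scaffold subunit, averaged 6.83 ± 2.42 CPM in G1, 5.43 ± 1.86 CPM in Early_S, 7.04 ± 1.44 in Late_S and 8.62 ± 0.719 in G2, from 70 to 179 reads per library (adjusted p across phases = 0.556). LIN37, needed for DREAM's repressive function, averaged 6.12 ± 2.26, 3.68 ± 0.936, 5.68 ± 1.49 and 3.95 ± 2.25 CPM (adjusted p = 0.515). LIN54, the DNA-binding subunit that recognises the CHR promoter element, averaged 12.5 ± 3.70, 12.6 ± 3.61, 10.1 ± 1.45 and 11.7 ± 2.74 CPM (adjusted p = 0.820). The 95% intervals of their pairwise log2 differences reached as far as -1.75 (LIN37, Early_S against G1), so a 2-fold change lies within some of them.

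The pocket proteins, which bridge E2F4 and MuvB, differed from each other. RBL2 was lowest in G1, at 8.23, 5.05 and 6.57 CPM. Early_S gave 17.0, 23.1 and 18.8 CPM, Late_S 12.5, 13.8 and 13.7 CPM, and G2 18.3, 18.1 and 9.98 CPM. No library of another phase overlapped with G1. The rise from G1 to Early_S was 1.57 (SE 0.29, adjusted p = 5.15e-05), Late_S was above G1 by 1.01 (SE 0.28, adjusted p = 0.00826), and G1 was below G2 by -1.22 (SE 0.28, adjusted p = 0.00128). Only the Late_S difference was lost by leaving out a library, at 0.0523 without G1 replicate 2. These levels rest on 92 to 410 reads per library. RBL1, itself an E2F target in other cells, averaged 7.81 ± 3.41 CPM in G1, 5.93 ± 1.43 CPM in Early_S, 8.32 ± 1.53 in Late_S and 5.78 ± 1.31 in G2, and was not called (adjusted p across phases = 0.568).

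Set out by comparison, the step from G1 to Early_S held most calls: RBL2, RBBP4 and MYBL2 rose and LIN52 fell, 4 of 9 genes against 24.3% of all genes (12.5% higher and 11.8% lower). The G1 and Early_S libraries of those 4 genes did not overlap, nor did those of 37.6% of all genes, while the other 5 overlapped. Without Early_S replicate 2, the calls for LIN52 (0.194) and RBBP4 (0.0684) were lost, which leaves 2 of 9. G1 against G2 gave 1 call (RBL2, 21.1% of all genes), Late_S against G1 gave 1 (RBL2, 19.9%), G2 against Early_S gave 1 (MYBL2, 19.3%) and Late_S against Early_S gave 1 (MYBL2, 11.2%). For G2 against Late_S, edgeR called none of the 9 genes, with 2 at an unadjusted p under 0.05. That comparison called 0.145% of all genes, and 9.56% had an unadjusted p under 0.05. The median log2 difference of the 9 genes from G1 to Early_S was 0.01, and that of all genes was -0.00408.

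**Figure D2:**
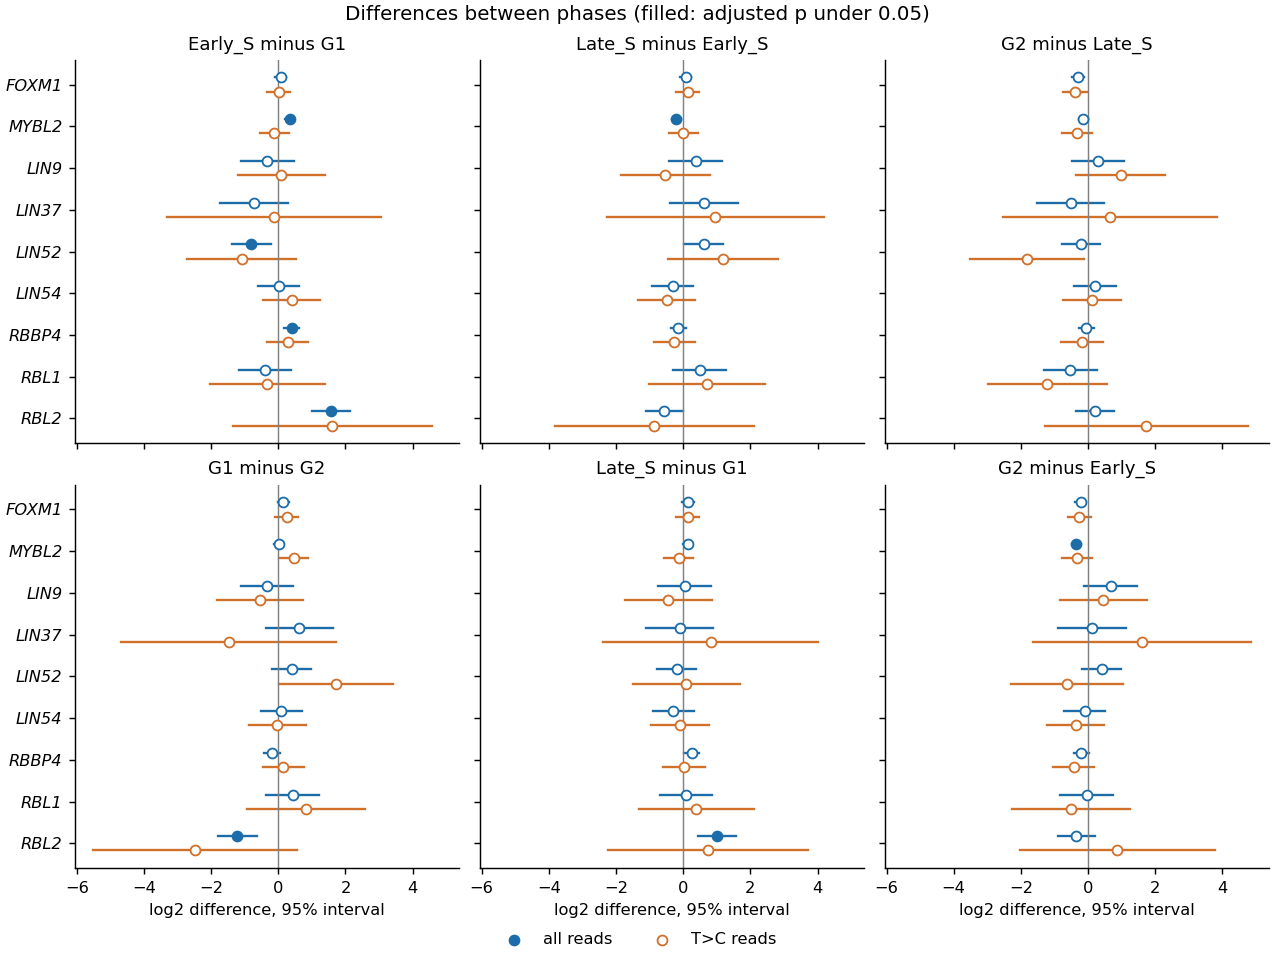
Log2 difference (x axis) with its 95% interval for the 9 genes (rows) in the 6 pairs of phases (panels), for all reads in blue and T>C reads in orange. Filled points have an adjusted p under 0.05: 8 of the 54 blue points and none of the orange ones, whose intervals are wider.

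The promoters of the 4 genes called between G1 and Early_S are shown because 3 of them rose together and 1 fell. RefSeq promoter windows (GRCh38.p14, the files' hg38 build in a later patch) were matched by symbol for 8 of the 9 genes, all but FOXM1. Printed below are the 250 bases before the first listed start site, 5′ to 3′ on the gene's strand, which is the plus strand for all 4. MYBL2 lies at chr20:43666864-43667113, RBBP4 at chr1:32650958-32651207, RBL2 at chr16:53434221-53434470 and LIN52 at chr14:74084706-74084955. Capitals mark matches, on either strand, to E2F cores (TTCCCGC or TTGGCGC or GGCGGGA), the CCAAT box, the CHR (TTTGAA), a forkhead core (TAAACA) and a MYB core (CAACGG).
MYBL2: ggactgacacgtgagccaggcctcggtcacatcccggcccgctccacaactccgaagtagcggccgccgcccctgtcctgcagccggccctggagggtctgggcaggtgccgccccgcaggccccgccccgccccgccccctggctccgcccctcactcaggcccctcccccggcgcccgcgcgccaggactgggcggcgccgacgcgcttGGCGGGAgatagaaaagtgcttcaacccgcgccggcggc
RBBP4: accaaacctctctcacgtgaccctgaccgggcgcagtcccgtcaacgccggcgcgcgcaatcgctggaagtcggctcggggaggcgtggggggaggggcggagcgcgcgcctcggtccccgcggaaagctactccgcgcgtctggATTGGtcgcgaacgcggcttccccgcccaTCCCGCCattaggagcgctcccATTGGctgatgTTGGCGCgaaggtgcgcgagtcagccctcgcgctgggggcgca
RBL2: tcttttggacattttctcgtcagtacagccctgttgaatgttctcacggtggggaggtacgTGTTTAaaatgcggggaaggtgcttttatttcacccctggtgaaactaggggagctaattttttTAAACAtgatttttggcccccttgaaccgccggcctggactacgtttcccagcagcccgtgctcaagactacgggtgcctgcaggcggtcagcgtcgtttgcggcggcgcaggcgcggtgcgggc
LIN52: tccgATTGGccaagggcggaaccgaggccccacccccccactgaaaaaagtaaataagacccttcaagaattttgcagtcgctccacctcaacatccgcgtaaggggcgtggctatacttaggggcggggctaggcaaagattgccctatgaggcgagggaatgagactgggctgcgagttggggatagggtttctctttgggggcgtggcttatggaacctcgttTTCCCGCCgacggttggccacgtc

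MYBL2 carried GGCGGGA with its first base at -39 from the start site and no other match. RBBP4 carried TTGGCGC at -43, the complement of GGCGGGA at -76, and inverted CCAAT boxes at -54 and -105. LIN52 carried TTCCCGC at -24, which overlaps by all but 1 base with a complement of GGCGGGA at -23, and an inverted CCAAT box at -246. RBL2 had no E2F core and carried forkhead cores at -125 and, on the other strand, at -189. Over all listed windows of 300 bases, of which the 8 matched genes have 14, an E2F core was found in 10 of the 14 (all genes but RBL2) and in 20.2% of 35116 windows of all genes. CHR letters were found in 5 of the 14 (LIN37, LIN54, LIN9 and RBL2; 15.2% of all windows). CCAAT boxes were found in 5 (LIN37, LIN52, RBBP4 and RBL2; 34.6%), the forkhead core in 2 (both RBL2; 12.3%) and the MYB core in none (5.72%). The CHR match of RBL2 lies after the start site, at 25. Windows of a gene can overlap, so the counts of windows are not of separate sites. The E2F cores of RBBP4, and the E2F core and CHR of LIN54, were each found in 2 overlapping windows. These are letter matches and no binding was measured.

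The levels of the 9 genes were set beside lists of genes that work with them. Among 9 partners and paralogs (E2F4, E2F5, TFDP1, TFDP2, RB1, DYRK1A, RBBP7, MYB and MYBL1), 4 changed across phases, beside 34.1% of all genes. E2F4, the DNA-binding partner in DREAM, averaged 52.6 ± 4.00 CPM in G1, 42.7 ± 0.538 CPM in Early_S, 71.8 ± 5.57 CPM in Late_S and 79.6 ± 12 CPM in G2 (adjusted p = 2.38e-06). RB1, the pocket protein outside DREAM, was like RBL2 lowest in G1, at 13.7 ± 5.58 CPM against 25.6 ± 3.40, 31.0 ± 4.74 and 32.2 ± 8.41 CPM (adjusted p = 0.000226). TFDP1, a DP partner of E2F factors, rose from G1 to Early_S by 0.36 (adjusted p = 0.00700). DYRK1A was higher in G1 than in G2 by 0.99 (adjusted p = 0.0228).

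Kinase, cyclin and ubiquitin ligase subunit genes were examined whose products act on FOXM1, MYBL2, MuvB or their kinases. They were CDK1, CDK2, CDK4, CDK6, CCNA2, CCNF, FZR1, PLK1 and WEE1. All 9 changed across phases, beside 34.1% of all genes. CDK2, whose kinase phosphorylates B-MYB and FOXM1, averaged 274 ± 12.7, 368 ± 33.3, 304 ± 9.73 and 278 ± 13.5 CPM from G1 to G2. CCNA2, its cyclin, averaged 49.3 ± 2.29, 62.9 ± 5.82, 110 ± 7.65 and 147 ± 13.4 CPM. CCNF, which encodes cyclin F, a ubiquitin ligase subunit, averaged 81.5 ± 10.2, 128 ± 6.99, 162 ± 7.80 and 214 ± 8.83 CPM. Against G2, 7 of the 9 were lower in G1 (11.1% of all genes), all but CDK2 and WEE1, and none was higher (10%).

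Of the mitotic genes that MYBL2, FOXM1 and MuvB are known to activate, 38 were in the files. Across phases, 37 of them changed, beside 34.1% of all genes. Their median log2 difference for G1 against G2 was -1.78, and 36 were lower in G1, against 11.1% of all genes. The 38 genes had a median ratio of 3.43 between highest and lowest phase mean, against 1.44 for the 9 genes. The 8596 genes of at least 10 CPM had a median of 1.40, but LIN9, LIN37 and RBL1 lay below 10 CPM. Of those 8596 genes, 21.2% had a smaller ratio than FOXM1, 24.3% than LIN54 and 28.9% than MYBL2. For RBBP4 this was 36.2%, for LIN52 79.9% and for RBL2 97.4%. AURKA, a spindle kinase gene, averaged 51.0 ± 10.2 CPM in G1 and 230 ± 7.52 in G2. TPX2, its activator, averaged 148 ± 12.5 and 467 ± 26.9 CPM, TOP2A 35.2 ± 8.87 and 207 ± 17.9 CPM, and PIMREG 15.3 ± 0.660 and 100 ± 1.51 CPM.

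The 32 G1/S genes, which E2F factors and DREAM share as targets, had smaller differences, and 23 changed across phases (34.1% of all genes). In G1, 15 were higher (10% of all genes) and 3 lower (11.1%) than in G2, with a median of 0.41. From G1 to Early_S, the phase step at which MYBL2, RBBP4 and RBL2 rose, 15 fell (11.8% of all genes) and 7 rose (12.5%). MSH6, a mismatch repair gene, averaged 388 ± 13.2 CPM in G1 and 163 ± 6.63 in Early_S. PCNA, the sliding clamp of DNA polymerase, averaged 237 ± 13.1 and 124 ± 19.0 CPM, UNG 174 ± 11.5 and 98.5 ± 5.06 CPM, and MCM5 228 ± 14.3 and 155 ± 3.87 CPM. RBL1 is itself one of these 32 genes.

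**Figure D3:**
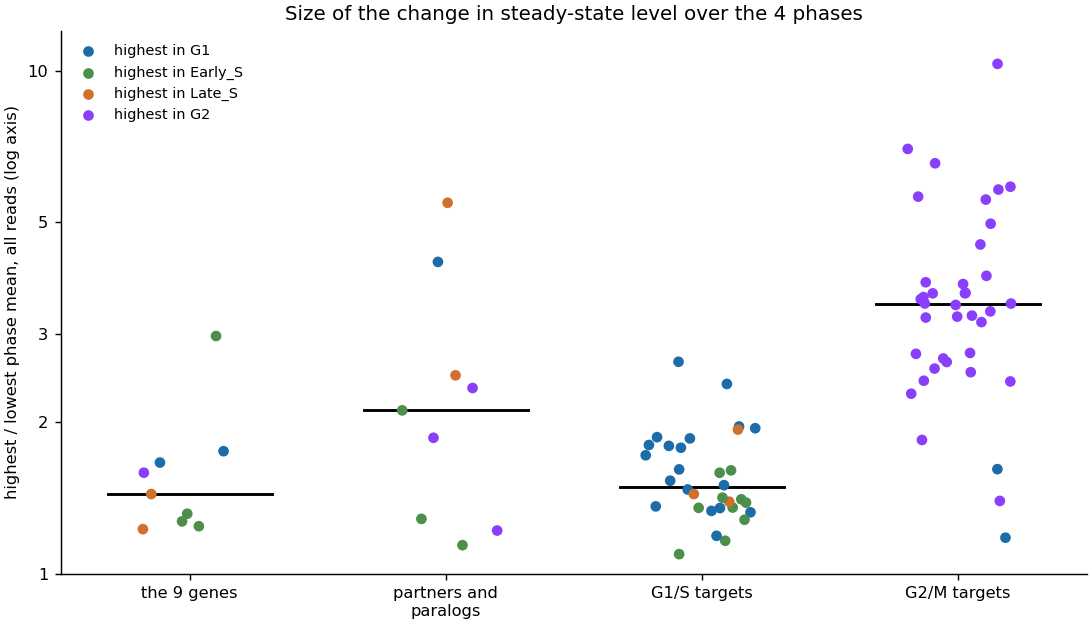
Ratio of the highest to the lowest of the 4 phase means of all reads (y axis, log scale) for each gene of 4 lists (x axis), coloured by the phase of the highest mean, with black bars at list medians. The 9 genes have a median of 1.44 with RBL2 at 2.97, and 36 of the 38 G2/M targets are highest in G2.

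Nascent levels are T>C reads scaled to each library's own T>C total, which removes the difference in labelling between phases. Background conversions were not subtracted from them. None of the 9 genes was called by edgeR across phases (10.4% of 11474 genes were), with none at an unadjusted p under 0.05 (23.4% of all genes). DESeq2 called none of them across phases, against 16.8% of 11023 genes. In that edgeR test, with T>C reads scaled to their own total, 36 of the 38 G2/M genes were called. None of the 54 pairwise tests was called either, against 4.54% of all such tests, with 4 at an unadjusted p under 0.05. Of all genes, from 10.1% (G2 against Late_S) to 19.4% (G1 against G2) had such a p in a pair. Scaled by all reads instead, which keeps the lower labelling of late phases, T>C reads gave 5 of 9 genes called across phases (56.2% of all genes) and 18 of 54 pairs (31.5% of all such tests).

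FOXM1 had 288, 279 and 201 nascent CPM in G1, 255, 259 and 257 in Early_S, 260, 309 and 275 in Late_S, and 201, 199 and 244 in G2. The G2 libraries lay below all Early_S and Late_S libraries, and the log2 difference of G2 from Late_S was -0.39 (95% interval -0.74 to -0.04, adjusted p = 0.423). MYBL2 had 219, 154 and 146 nascent CPM in G1, 138, 193 and 145 in Early_S, 160, 160 and 156 in Late_S, and 123, 136 and 120 in G2. Its G2 libraries lay below all others, and the difference of G1 from G2 was 0.46 (95% interval 0.02 to 0.89, adjusted p = 0.228). Nascent levels in G2 did not overlap with those in G1 for 25.7% of all genes, in Early_S for 22.5% and in Late_S for 12.9%. For Early_S against G1, where all reads of MYBL2 rose, the T>C reads gave -0.12 (95% interval -0.55 to 0.30). The difference between the 2 kinds of reads is the labelled share, tested below.

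RBBP4 averaged 73.7 ± 14.1, 89.7 ± 27.4, 74.8 ± 14.4 and 66.5 ± 11.6 nascent CPM from G1 to G2, with overlap between all phases. LIN54 averaged 39.1 ± 11.1, 51.7 ± 16.5, 36.6 ± 1.59 and 40.03 ± 15 nascent CPM. LIN52 averaged 18.0 ± 5.71, 8.43 ± 4.16, 19.3 ± 4.89 and 5.41 ± 4.24 nascent CPM. Its G2 libraries, with 13, 1 and 19 T>C reads, lay below those of G1 and Late_S (G2 against Late_S -1.81, 95% interval -3.51 to -0.11, adjusted p = 0.446). T>C reads per alkylated library ranged from 18 to 122 for LIN9, from 0 to 138 for RBL1, from 1 to 45 for RBL2 and from 0 to 31 for LIN37. Libraries of one phase could differ widely: in G2, RBL2 had 45, 4 and 1 T>C reads, and RBL1 had 0, 16 and 48.

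The labelled share is the percent of a gene's reads that are T>C reads, and reflects how much of its RNA was made within the pulse. It differed widely among the 9 genes. In G1, LIN9 stood at 75.0% ± 7.18 and LIN54 at 73.1% ± 4.49, above 94.0% and 93.0% of 11291 genes. RBL1 followed at 50.8% ± 16.4, LIN52 at 27.4% ± 10.8, FOXM1 at 24.5% ± 3.31 and RBBP4 at 16.1% ± 1.63, beside a median gene at 28.5%. LIN37 (6.56% ± 6.95), RBL2 (5.67% ± 3.47) and MYBL2 (5.56% ± 1.13) were lowest, above 3.11%, 1.94% and 1.86% of genes. Libraries of LIN9 and LIN54 overlapped, as did those of RBL1 with LIN52, of LIN52 with FOXM1 and RBBP4, and of the 3 lowest genes with each other. Those of LIN54 and RBL1, of FOXM1 and RBBP4, and of RBBP4 and LIN37 did not overlap.

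Mean shares of all 9 genes were lower in Late_S than in G1, though libraries of the 2 phases overlapped for LIN37, LIN52, RBL1 and RBL2. In Late_S, LIN54 had 36.2% ± 3.87, RBL1 27.5% ± 13.2, LIN9 22.3% ± 13.3, LIN52 14.2% ± 3.52, FOXM1 10.5% ± 1.00, RBBP4 5.90% ± 0.958, LIN37 5.56% ± 6.31, RBL2 2.01% ± 1.80 and MYBL2 2.0% ± 0.0640. The median gene stood at 10.9% in Late_S and 10.2% in G2. Not every mean fell from phase to phase. In Early_S, LIN9 (77.8% ± 16.3) and LIN54 (76.2% ± 13.0) had means above those of G1, within the spread of the libraries. In G2, the means of LIN9 (36.7% ± 22.7), LIN37 (12.9% ± 9.17) and RBL2 (5.02% ± 7.30) lay above those of Late_S, with wide spread, and that of LIN37 also above its G1 mean. FOXM1's share followed that of its libraries, at 1.10 ± 0.164, 1.03 ± 0.0903, 1.05 ± 0.0932 and 0.962 ± 0.135 times the library's own T>C share from G1 to G2. MYBL2's share was 0.249 ± 0.0451 times the library's in G1, 0.176 ± 0.0184 times in Early_S, 0.199 ± 0.00687 in Late_S and 0.171 ± 0.0102 in G2. A conversion is seen only where the sequenced stretch holds T, so shares of different genes also depend on base composition.

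**Figure D4:**
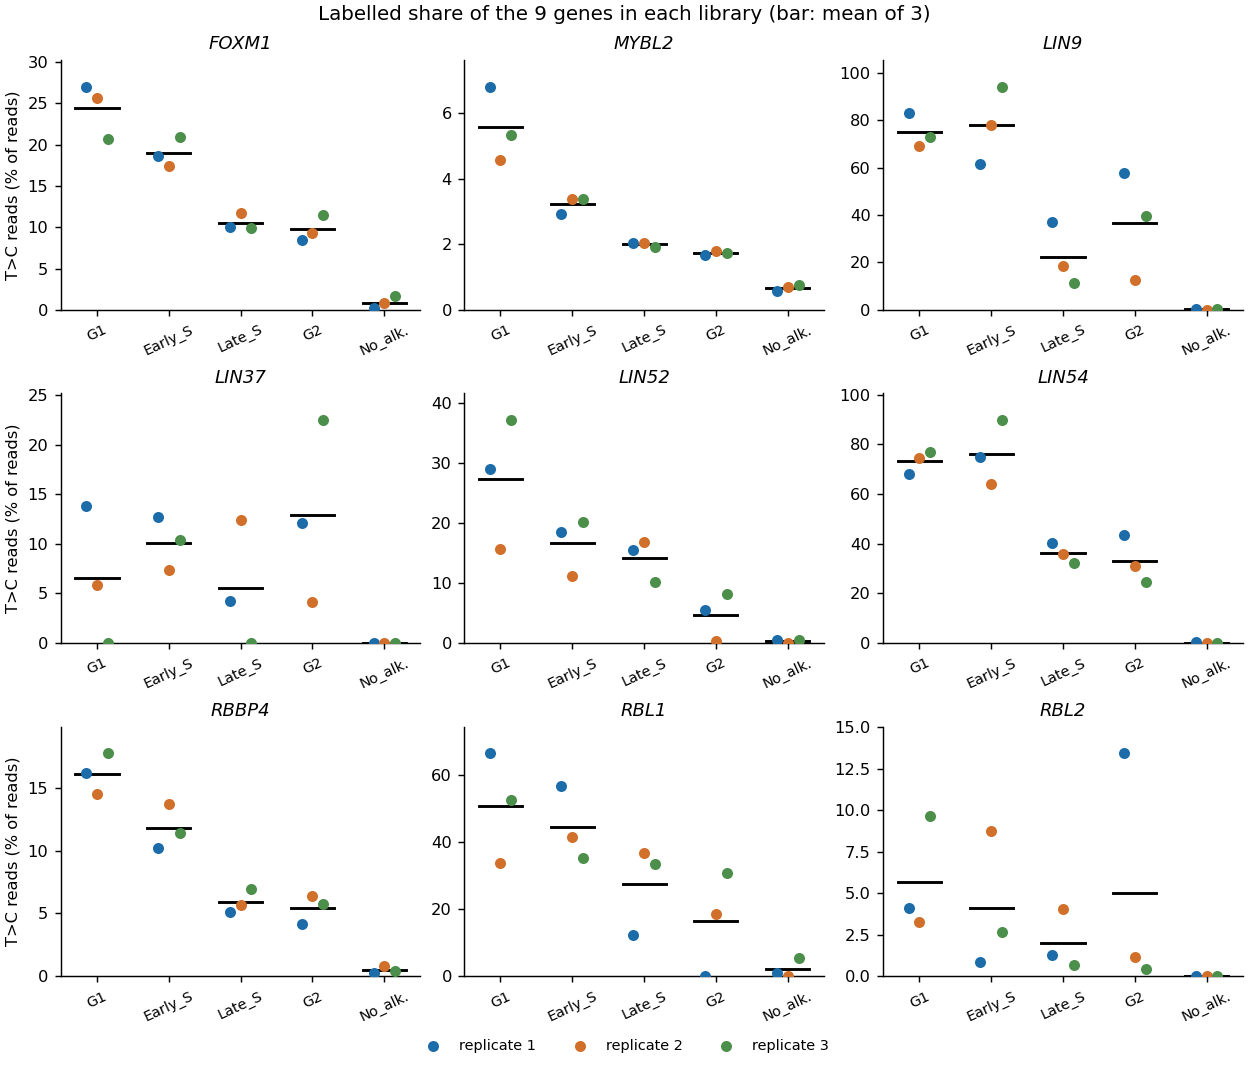
T>C reads as a percent of a gene's reads (y axis, from 0, a scale of its own for each gene) in the 15 libraries, as points coloured by replicate number, with black bars at the mean of 3. Mean shares of FOXM1, MYBL2 and RBBP4 are highest in G1, with 1 G1 library of FOXM1 below its highest Early_S library, while single libraries of LIN37, RBL1 and RBL2 range from 0% or near it to over 10%.

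With each kind of read scaled on its own, edgeR called the labelled share of none of the 9 genes across phases, against 14.8% of 11291 genes. Only MYBL2 had an unadjusted p under 0.05, against 27.2% of all genes. None of the 54 pairwise tests was called, against 6.81% of all such tests, with 6 at an unadjusted p under 0.05. Of all genes, from 8.4% (G2 against Late_S) to 23% (G2 against Early_S) had such a p in a pair. Log2 differences in these tests are of the ratio of T>C to other reads, relative to other genes, and not of the share itself. The lowest adjusted p was MYBL2's, whose ratio was higher in Late_S than in Early_S by 0.44 (95% interval 0.14 to 0.75, adjusted p = 0.0705). Its difference of Early_S from G1 was -0.41 (95% interval -0.71 to -0.11, adjusted p = 0.121). Background conversions were not subtracted. MYBL2's share was 0.666% without alkylation, beside 3.24% in Early_S and 2.0% in Late_S, so background weighs more in Late_S. Whether its differences remain without background was not tested. LIN9's ratio was lower in Late_S than in Early_S by -2.85 (95% interval -4.96 to -0.74, adjusted p = 0.0942), with 57, 20 and 18 T>C reads in Late_S. Where the share is high, as for LIN9 in Early_S (77.8%), this ratio changes more than the share does.

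Without that scaling, mean shares of all but LIN37 were lower in G2 than in G1, as were those of the libraries. FOXM1 went from 27.0%, 25.7% and 20.7% in G1 to 8.49%, 9.26% and 11.5% in G2, and MYBL2 from 6.79%, 4.57% and 5.33% to 1.68%, 1.78% and 1.72%. An unscaled test called 6 of the 9 genes across phases (FOXM1, LIN52, LIN54, LIN9, MYBL2 and RBBP4), against 63.1% of all genes, and 22 of 54 pairs, against 37.2% of all such tests. Conversion rates, the percent of covered T positions read as C, gave the same order of phases for FOXM1: 3.25% ± 0.503, 2.79% ± 0.412, 1.54% ± 0.429 and 1.41% ± 0.191. MYBL2 had 0.510% ± 0.0952, 0.310% ± 0.0238, 0.181% ± 0.0151 and 0.169% ± 0.0331.

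Against No_alkylation, all 9 genes had a higher labelled share in the alkylated libraries by edgeR, as had 83.8% of the 12909 genes that passed this test's own filter. No_alkylation shares were 0.879% ± 0.733 for FOXM1, 0.666% ± 0.0927 for MYBL2, 0.520% ± 0.299 for RBBP4, 0.315% ± 0.273 for LIN52, 0.161% ± 0.140 for LIN9, 0.106% ± 0.184 for LIN54 and 2.14% ± 2.90 for RBL1. MYBL2 was the gene nearest its background: the ratio of T>C to other reads had a log2 difference of 2.11 (SE 0.15, adjusted p = 3.72e-13), against 4.42 for FOXM1. In G2 its share of 1.73% ± 0.0530 compares with 0.666% ± 0.0927 without alkylation. LIN37 had 0 of 391 No_alkylation reads with conversions. With reads taken as independent, this allows a share of up to 0.767% (3 counts). The pooled alkylated share of LIN37, 9.50%, was 12.4-fold that limit. RBL2 had 0 of 731, which in the same way allows up to 0.410%, and its pooled share of 4.29% was 10.4-fold that limit. These limits do not cover the spread between libraries, where T>C reads ran from 0 to 31 for LIN37 and from 1 to 45 for RBL2. FOXM1 had 5, 21 and 49 T>C reads in the 3 No_alkylation libraries, and RBL1 had 3, 0 and 16.

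All reads of the No_alkylation libraries also differed from the phases, for 6 of the 9 genes and 43.4% of 13972 genes. FOXM1 was lower, at 151 ± 9.12 CPM against phase means of 218 to 268 CPM in the scaling over 15 libraries (log2 difference -0.70, adjusted p = 2.74e-11). MYBL2 was lower, at 452 ± 25.3 CPM against 720 to 908 CPM (-0.79, adjusted p = 1.33e-15). LIN9 (20.4 ± 4.39 CPM, 1.55), RBL1 (16.9 ± 0.831 CPM, 1.28), LIN52 (28.9 ± 4.93 CPM, 1.22) and LIN54 (19.3 ± 1.97 CPM, 0.71) were higher. RBBP4 (123 ± 10.4 CPM), RBL2 (13.4 ± 1.70 CPM) and LIN37 (7.17 ± 2.26 CPM) were not called. The call for LIN54 was lost without No_alkylation replicate 2 (0.0575). The missing alkylation step and any difference in the cells cannot be told apart here.

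Except for LIN37 and LIN54, nearly all reads of a gene came from 1 region at its 3′ end (hg38, counted from 1). FOXM1 was read at chr12:2857681-2858637, MYBL2 at chr20:43716088-43716496, LIN9 at chr1:226231149-226232500, LIN52 at chr14:74198978-74201235, RBBP4 at chr1:32679640-32686211, RBL1 at chr20:36996349-36998758 and RBL2 at chr16:53490301-53491649. These regions held at least 96.3% of the gene's reads in every alkylated library. LIN37 had its main region at chr19:35754393-35754519 and a smaller one at chr19:35754246-35754319, whose 173 reads in the alkylated libraries held 0 T>C reads.

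The main region of LIN54, chr4:82924603-82928303, held 60.4% to 94.9% of its reads, and 53.6% of those reads were T>C reads over the 12 alkylated libraries. A region inside the gene, chr4:82970327-82970421, far from its 3′ end, held 1.40% to 17.7% of reads. There 200 of 256 reads (78.1%) were T>C reads, and the No_alkylation libraries held 0 reads in it, beside 953 in the main region. With the main region alone, LIN54 was likewise not called across phases.

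Across the 12 phase-sorted libraries, levels of RBBP4 and RBL2 varied together (Pearson r = 0.74 of log2 CPM), as did FOXM1 with RBL1 (0.67), FOXM1 with MYBL2 (0.63), MYBL2 with RBBP4 (0.60) and MYBL2 with RBL2 (0.60). LIN52 ran against MYBL2 (-0.75) and RBL2 (-0.69). Among 8595 other genes of at least 10 CPM, the gene most like MYBL2 was CDK2 (0.94), followed by SEPT5, HTATIP2 and RING1 (all 0.91). Those most like RBL2 were MICALL1, the joined entry GP1BB,SEPT5 (both 0.96), VPS4A and RAB34 (both 0.95). Those most like FOXM1 were SDHA (0.87), ZW10, HGSNAT and RAB8A (all 0.84). Those most like RBBP4 were NUP210 and the joined entry AC011455.3,SARS2 (both 0.90), OGG1 (0.90) and the joined entry of C18orf32 (0.89). The points share library depth and phase, and the values are descriptions.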

How the data were processed

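SLAM-seq (3′ end sequencing of RNA labelled with 4-thiouridine) was done in 15 libraries of U2OS cells. Per the file headers, the authors counted reads and T>C reads per region with slamdunk 0.2.4. Reads were mapped to hg38 per the submitters' processing notes, and the regions come from a merged Ensembl release 90 annotation, per the file headers. Aligner settings, and how many conversions a T>C read needed, were not given in the sources used here. Read counts, T>C read counts and counts of covered and converted T positions were used as deposited and summed by gene name. The conversion rate, deposited as a fraction, was recomputed from those sums, and the deposited CPM values were not used. CPM values in the text were computed from the counts.

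Between 10.9% and 12.1% of reads were multimapped, and reads carried no molecular identifiers, so floors cover counting error only. All reads (steady-state) and T>C reads (nascent) were each fitted by edgeR 4.0.16 quasi-likelihood in R 4.3.3, after filterByExpr (count minimum 10, total minimum 15) and with TMM factors, over the 12 phase-sorted libraries. The labelled share was fitted with T>C and other reads as separate columns of each library, each with its own TMM factors. Its log2 differences are therefore of the ratio of T>C to other reads. An F-test across phases and 6 pairwise contrasts were each adjusted by Benjamini-Hochberg over all genes and called at 0.05, two-sided. All reads of No_alkylation were compared in a like fit over 15 libraries. The share test against No_alkylation kept genes by a filter of its own, which asked for 10 reads on average. It did not scale T>C reads against other reads. Errors are SD over 3 libraries, or SE and 95% intervals for log2 differences.

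On simulated counts with 200 genes changed 2-fold between Late_S and G2, the fits recovered 96% (steady-state), 91% (nascent) and 56% (share). Of the genes called there, 3.03%, 9% and 4.27% were false. Changed genes were drawn only above a minimum mean count, with the same fixed spread for every gene. Mean T>C reads of LIN37, RBL2, LIN52 and RBL1 lay below that minimum, so the nascent and share recoveries do not apply to them. Standard errors also differed by gene. For G2 against Late_S the steady-state SE was 0.50 for LIN37, 0.39 for LIN9 and RBL1, and 0.07 for MYBL2. The nascent SE of LIN9 was 0.65. The recoveries, steady-state included, are therefore not estimates for single genes of the 9. Libraries with the same replicate number were checked for pairing: deviations from phase means correlated at -0.0168 to 0.0922, none above 0.1, so the numbers were not used to pair libraries. Alternatives were other size factors (RLE), no filter, DESeq2 1.42.0, a replicate block, the main region only, other scalings of T>C reads, reads minus multimapped reads, and each library left out.

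The genes, lists and tests were chosen with earlier results of these data known. Named genes were the 9 members, genes of the partner and acting-on lists, the 4 target genes of each list with the smallest p across phases, and, for each of the genes called across phases, the 4 with the highest correlation among genes of at least 10 CPM (log2 CPM, prior count 2). One gene of the acting-on list is not reported here. RefSeq promoter sequences were searched for fixed letters.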

Additional observations from a re-analysis of the deposited data

How the results depend on the processing

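Counts of the 9 genes called across phases and against No_alkylation kept within 1.5 times under RLE size factors, no filter, DESeq2, the main region only and reads minus multimapped reads where these were run. Scaling T>C reads by all reads, which keeps the lower labelling of late phases, moved nascent calls from 0 to 5 of 9 genes across phases (56.2% of all genes) and from 0 to 18 of 54 pairwise tests (31.5%). Under it the median log2 difference of all genes was -1.22 for Late_S against G1 and 1.27 for G1 against G2, where scaling to the T>C total gave -0.00281 and 0.0299. Without scaling T>C against other reads, labelled shares gave 6 of 9 across phases (63.1% of all genes) and 22 of 54 pairwise calls (37.2%). With a library left out, steady-state calls ranged from 3 to 4 across phases and from 5 to 9 between pairs, the lowest without Early_S replicate 2. Nascent calls stayed at 0 in both, share calls at 0 across phases and from 0 to 1 between pairs (1 without Early_S replicate 1), share against No_alkylation at 9, and steady-state calls against No_alkylation from 5 to 6. With the replicate block, steady-state calls were 4 across phases (35.8% of all genes) and 9 between pairs (17% of all such tests). Nascent calls were 0 in both (10.7% and 4.67%). A block could not be fitted for the share, whose model already holds each library. Of the single-gene results, 857 kept their side of the threshold, 23 lost a call, 11 gained one and none reversed. The 857 include results never called, such as the nascent and share tests across phases. Among called results, FOXM1 and RBBP4 across phases were each lost in 4 of 12 fits that left out 1 library. MYBL2's step from Early_S to Late_S was lost in 6 and LIN52's from G1 to Early_S in 3. T>C reads summed over the 12 alkylated libraries were fewest for LIN37 (105), RBL2 (133), LIN52 (454), RBL1 (587) and LIN9 (789).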
